A study of Oryza sativa Japonica Group with 31 samples.

Results

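The 7 genes described here encode 6 enzymes that take chlorophyll apart in ageing rice leaves and 1 transcription factor of leaf senescence. They were chosen by name, as SGR (LOC_Os09g36200), NYC1 (LOC_Os01g12710), NOL (LOC_Os03g45194), NYC3 (LOC_Os06g24730), PAO (LOC_Os03g05310), RCCR1 (LOC_Os10g25030) and NAP (LOC_Os03g21060), and make up 7 of the 55801 loci of the expression table. All 7 were found there. The table carries no gene names, so each name rests on the list that paired it with a locus. In the RefSeq gene table of assembly ASM3414082v1, 4 of the 7 names (NYC1, NOL, SGR and RCCR1) were each held by a single gene, on the chromosome that the locus identifier gives. The other 3 names were not matched there.

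The samples were leaves of Nipponbare, the japonica rice cultivar behind the reference genome, with no transgene or mutation named in the labels. Control seedlings grew at a mean of 28 °C and 22 °C over cycles of 12 h light and 12 h dark, and cold-treated seedlings were moved to 4 °C on day 13 and collected 24 h later. RNA-seq was made from 4 libraries, 2 per treatment, of the 31 in the series. The table gives 1 FPKM value (fragments counted on a locus, divided by its length and by the mapped fragments of the library) per locus and treatment, so that no value has a replicate error, no test between treatments was possible and every difference below is a description of those columns. How many reads a value rests on is not known. In leaf tissue taken whole, a change in the amount of RNA per cell and a change in the number of cells that hold it cannot be told apart. The labelled tissue was not checked against leaf markers, since the reference names none of their locus identifiers.

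Chlorophyll is dismantled in a fixed order inside the chloroplast. Chlorophyll b is first reduced towards chlorophyll a, the magnesium ion is then taken out, the phytol tail is cut off, and the ring is opened and reduced to a product that is no longer phototoxic and leaves for the vacuole. Mutants that lack an early step keep their leaves green during senescence, and mutants blocked at the ring-opening steps can accumulate intermediates that damage cells in light.

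The cold column was higher than the control column for 4 genes (NYC1, SGR, NAP and NYC3) and lower for 3 (RCCR1, NOL and PAO), with PAO at equality under 1 of the 3 other scalings of the columns tried. The largest differences were those of NYC1 and SGR, which act at the first steps, chlorophyll b reduction and magnesium removal. The genes listed lower were the second chlorophyll b reductase gene and both genes of the last steps. At the limit of a 2-fold difference on the log2(FPKM + 1) scale, which adds 1 FPKM to each value before the logarithm, 2 of the 7 were higher in cold and 0 were lower. The background is the 20876 loci whose mean over the columns reached 1 FPKM, which include all 7 genes. Of these, 12.5% passed the same limit upwards and 19.2% passed it downwards. Counted by direction alone, 38.8% of these loci were higher in cold and 61.2% were lower. These shares are for the columns as deposited and depend on the scale between them. Under median-of-ratios scaling, 18.1% of the loci kept passed the 2-fold limit upwards and 10.97% downwards. Of the 7 genes, 3 then passed it upwards and 0 downwards. The median log2 difference was 0.49 over the 7 genes, within a range of −0.59 to 2.14, and −0.27 over all loci. No test stands behind this contrast, and so small a count allows no statement that the set differs from the rest of the table.

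**Figure D1:**
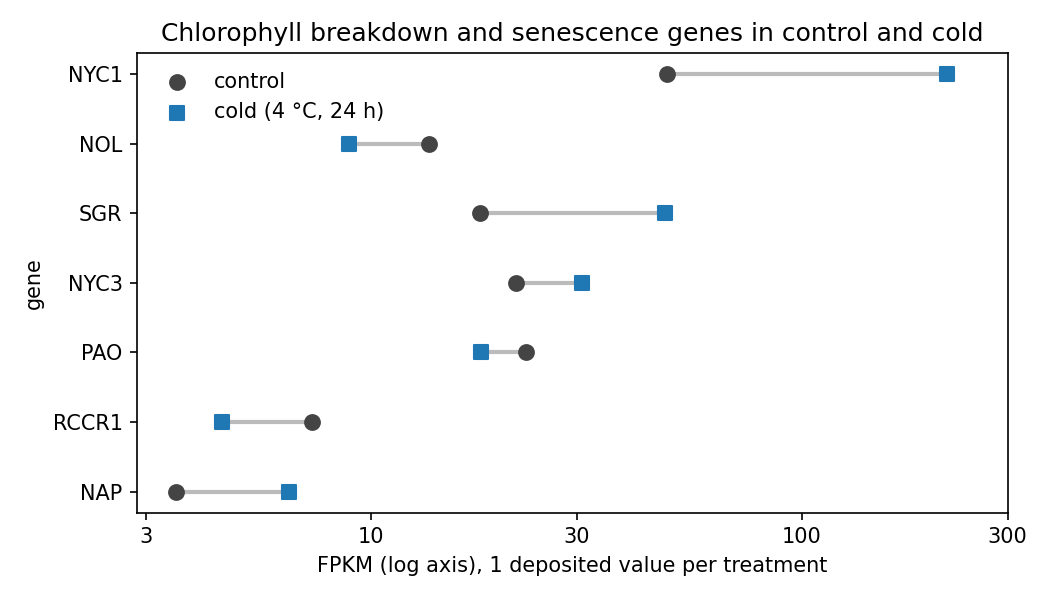
FPKM in control (circles) and after 24 h at 4 °C (squares) for each of the 7 genes, on a log axis, with 1 deposited value per treatment and no error bars. NYC1 runs from 48.7 to 217.5 FPKM and SGR from 17.9 to 48.0 FPKM, while the cold values of NOL, PAO and RCCR1 lie to the left of their control values.

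Chlorophyll b reductase is shared by NYC1 and NOL, related short-chain dehydrogenases that in rice act together on the thylakoid membrane and are needed to degrade the light-harvesting complex of photosystem II. The control value of NYC1 was 48.7 FPKM and its cold value 217.5 FPKM, a ratio of 4.46 and a log2(FPKM + 1) difference of 2.14. It had the highest level of the 7 genes in both treatments. Of the 20876 loci, 2115 were above it in control and 300 in cold, and 678 (3.25%) had a larger log2 difference. NOL stood at 13.6 FPKM in control and was 1.53-fold lower in cold, at 8.91 FPKM, with a log2 difference of −0.56. The reductase genes thus lay on opposite sides of equality. Within a column, where the scale between treatments cancels, NYC1 stood 3.58-fold above NOL in control and 24.4-fold above it in cold, so the ratio between them was 6.82-fold larger in cold. Summed over both genes, the level was 62.3 FPKM in control against 226.4 FPKM in cold.

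SGR encodes the STAY-GREEN protein, known from the green-cotyledon pea studied by Mendel and shown in Arabidopsis to remove magnesium from chlorophyll a. SGR had 17.9 FPKM in control against 48.0 FPKM in cold, a ratio of 2.68 and a log2 difference of 1.37. Among all loci, 1682 (8.06%) had a larger difference. Its level was the fourth of the 7 genes in control and the second in cold. NYC1 and SGR were the members past the 2-fold limit, and both stayed past it under every pseudocount and scaling tried.

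NYC3 encodes pheophytinase, which cuts the phytol tail from the magnesium-free pigment, and was named for a rice mutant whose leaves stay green. Its values were 21.7 FPKM without and 30.8 FPKM with cold, a ratio of 1.42 and a log2 difference of 0.49, within the 2-fold limit. A larger difference was found for 22.9% of all loci. SGR lay below NYC3 in control, at 0.826 of its level, and above it in cold, at 1.56 times its level.

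PAO encodes pheophorbide a oxygenase, the iron-sulfur enzyme that opens the pigment ring and gives the route its name, the PAO pathway. From 22.8 FPKM in control, PAO was 1.27-fold lower in cold, at 17.97 FPKM, with a log2 difference of −0.33. PAO lay close to the middle of the table. Of the 28807 loci above 0 in both columns, 14403 had a larger cold to control ratio and 14403 a smaller one, so that PAO held the median ratio, 0.787. Its direction therefore depended on the scale set between the columns, and it was 0 by construction under median-of-ratios scaling, which sets that median to equality, while the other 2 scalings kept it lower in cold (−0.26 with equal column sums and −0.31 with quantile normalization).

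RCCR1 encodes red chlorophyll catabolite reductase, which reduces the opened ring and in Arabidopsis protects cells from its phototoxic form. Its level was 7.29 FPKM in control and 1.62-fold lower, 4.51 FPKM, in cold, with a log2 difference of −0.59, the lowest of the 7. Still, 35.5% of all loci had a smaller (more negative) difference. The ratio of PAO to RCCR1 was 3.13 in control and 3.98 in cold, and that of NOL to RCCR1 was 1.87 and 1.97, the smallest shift among the 21 pairs of the 7 genes. Together, PAO and RCCR1 summed to 30.1 FPKM in control against 22.5 FPKM in cold, a 1.34-fold lower sum.

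NAP is a NAC-domain transcription factor that in rice promotes leaf senescence, is induced by abscisic acid and is known to activate several chlorophyll degradation genes. Whether it acted on any of the other genes described here was not tested in these data. NAP was weakly expressed, with 3.52 FPKM in control against 6.47 FPKM in cold, a ratio of 1.84 and a log2 difference of 0.72. This was the lowest level of the 7 in control and the second lowest in cold, where NAP lay above RCCR1. The difference was within the 2-fold limit as deposited, and 17.4% of loci had a larger one. NAP was the member whose place against the limit depended on the scale: its log2 difference was 1.01 under median-of-ratios scaling, which raises the cold column 1.27-fold against control, and 0.99 under quantile normalization. With so low a level the pseudocount also mattered, and the difference was 0.43 with a pseudocount of 5.

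**Figure D2:**
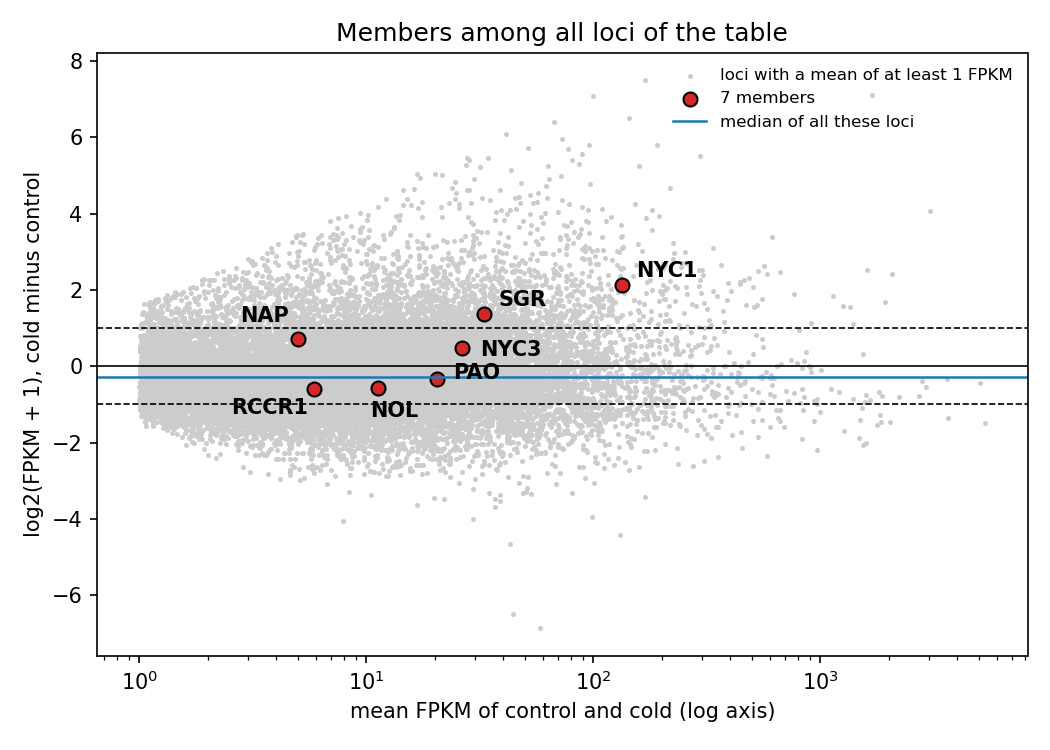
Difference of log2(FPKM + 1), cold minus control, against the mean FPKM (log axis) for the 20876 loci whose mean reached 1 FPKM (grey) and the 7 genes (red), with dashed lines at 2-fold. NYC1 (2.14) and SGR (1.37) lie above the upper dashed line, and PAO (−0.33) lies next to the median of all loci (−0.27, blue line).

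The difference of a locus varies with its level in this table, so each gene was also placed among loci of similar mean FPKM. That mean includes the cold value, so the class is not independent of the difference placed in it. By their control values alone, 48.7 and 17.9 FPKM, NYC1 and SGR would fall in the classes of 30 to 100 and 10 to 30 FPKM. Their class shares are therefore not a background matched on control level. NYC1 belonged to the 638 loci of 100 to 300 FPKM, of which 23.2% were 2-fold or more higher in cold, 23.98% were 2-fold or more lower and 60 had a larger log2 difference than NYC1. SGR belonged to the 3107 loci of 30 to 100 FPKM, of which 20.95% were 2-fold or more higher, 16.96% were 2-fold or more lower and 427 exceeded it. Over all loci the shares were 12.5% and 19.2%, so that the class of NYC1 held more loci past the limit in both directions and the class of SGR more of them upwards only. NAP and RCCR1 fell among the 6536 loci of 3 to 10 FPKM, whose median log2 difference was −0.37. In that class 86.0% of loci had a smaller difference than NAP and 39.9% a smaller one than RCCR1. NYC3, PAO and NOL fell among the 6116 loci of 10 to 30 FPKM, with a median of −0.14, where 74.6%, 42.2% and 31.8% of loci had a smaller difference.

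NYC1 made up more of the set in cold than in control. The summed FPKM of the 7 genes was 135.6 in control and 334.3 in cold, a ratio of 2.47. NYC1 accounted for 168.8 FPKM of the difference of 198.7 FPKM. Its share of the sum was 35.9% in control and 65.1% in cold. The share of SGR was 13.2% in control and 14.4% in cold. That of PAO was 16.8% in control and 5.38% in cold, that of NOL 10.04% and 2.66%, and that of RCCR1 5.38% and 1.35%. The shares of NYC3 (15.98% and 9.22%) and NAP (2.60% and 1.94%) were also smaller in cold although their FPKM was higher there, since the sum they are taken of grew mostly by NYC1. Without NYC1, the other 6 genes summed to 86.9 FPKM in control against 116.7 FPKM in cold, a ratio of 1.34. Because the shares are taken within a column, multiplying a whole column by a factor does not change them.

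**Figure D3:**
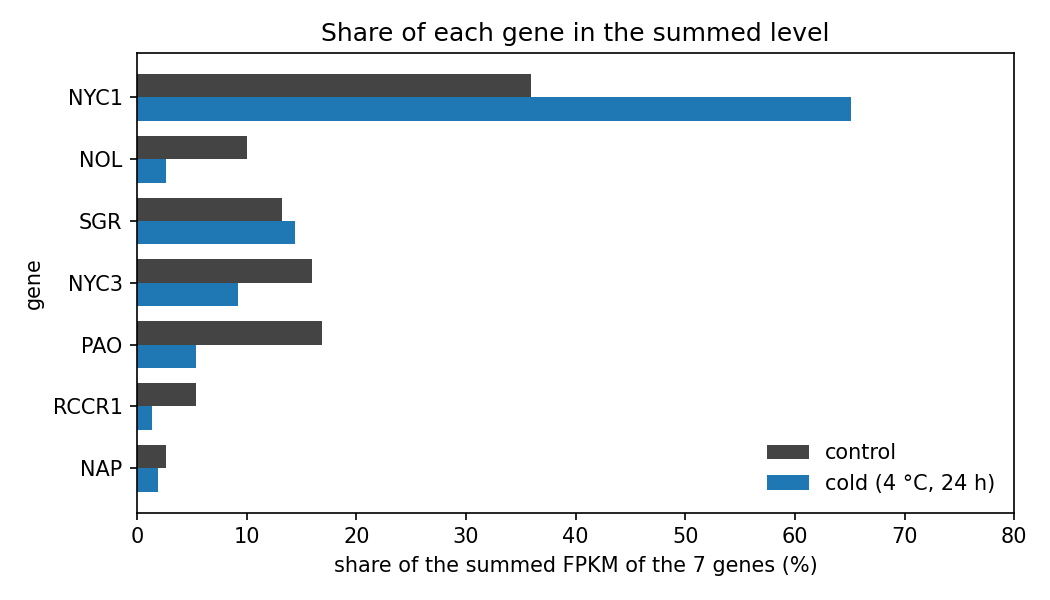
Share of each gene in the summed FPKM of the 7 genes, in percent, in control (dark bars) and cold (blue bars). The NYC1 bar is 35.9% in control and 65.1% in cold, and the PAO bar is 16.8% and 5.38%.

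The order of the levels was not the same in the columns. In control it was NYC1, PAO, NYC3, SGR, NOL, RCCR1 and NAP, with PAO and NYC3 next to each other at 22.8 and 21.7 FPKM. In cold it was NYC1, SGR, NYC3, PAO, NOL, NAP and RCCR1. Whether neighbours in either order differ beyond the spread of replicates cannot be said with 1 value each. Among the genes of the steps before PAO, the ratio to PAO was larger in cold for NYC1, SGR and NYC3 and smaller for NOL. These ratios are no separate observation, since PAO held the median cold to control ratio. Apart from the pseudocount, the change in a ratio to PAO restates the gene's own difference under median-of-ratios scaling. SGR was listed at 0.784 of the PAO level in control and at 2.67 times it in cold, and NYC1 at 2.13 and 12.1 times the PAO level. NYC3 was at 0.949 of the PAO level in control and at 1.72 times it in cold, and NOL at 0.596 and 0.496 of it. NAP was at 0.483 of the RCCR1 level in control and at 1.43 times it in cold.

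Median-of-ratios scaling and equal column sums raised the difference of every member, while quantile normalization raised those of NAP, RCCR1, NOL and PAO and lowered those of NYC1, SGR and NYC3 slightly. Median-of-ratios scaling shifted the median log2 difference of all loci by 0.30 and quantile normalization by 0.17. Equal column sums on a TPM scale shifted it by 0.05, but this also raises every value against the pseudocount and the filter, so that 22666 loci were kept. With both columns brought to the mean of their sums, which keeps the FPKM scale, the shift was 0.066 over 20867 loci. Relative to the median of all loci as deposited, the log2 differences were 2.41 for NYC1, 1.65 for SGR, 0.997 for NAP, 0.76 for NYC3, −0.056 for PAO, −0.29 for NOL and −0.32 for RCCR1. NOL and RCCR1 were below 0 and NYC1, SGR, NYC3 and NAP above 0 under each of the 3 scalings. The control value was 0.373 of the cold value for SGR and 0.224 of it for NYC1. The factors on the cold column were 1.05 with equal column sums and 1.27 with median-of-ratios scaling, both of which raise it. Quantile normalization has no single factor. Errors of a library or of a single locus were not tested.

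**Figure D4:**
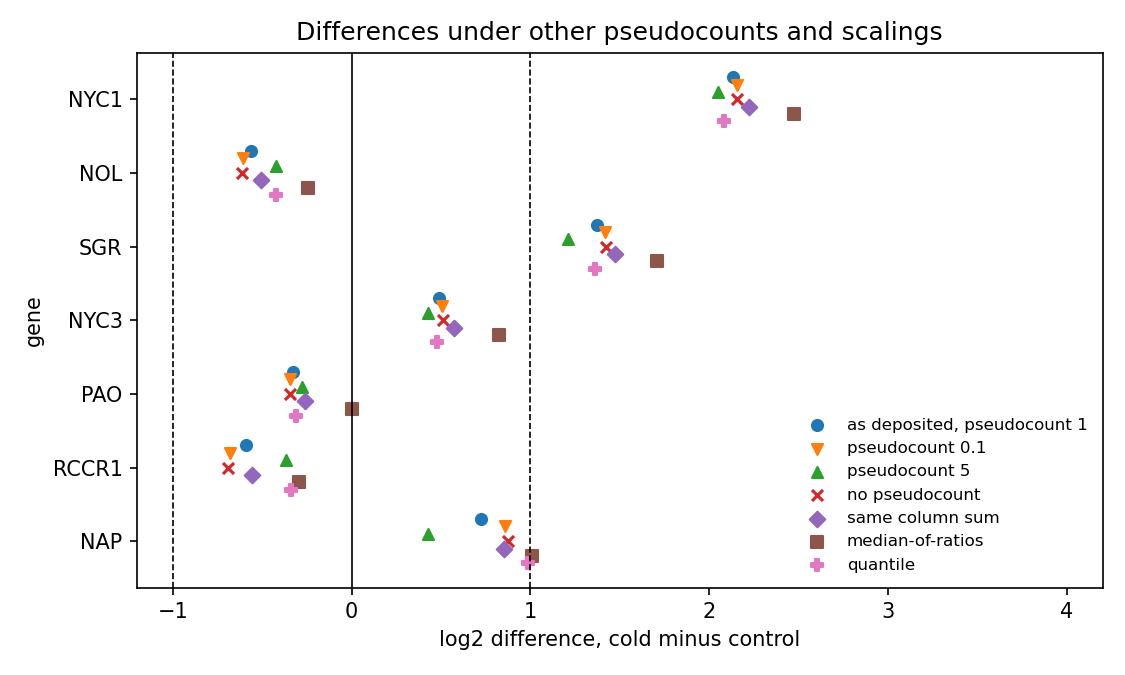
Log2 difference, cold minus control, of each gene as deposited with a pseudocount of 1 and under 3 other treatments of the pseudocount and 3 scalings of the columns, with dashed lines at 2-fold. All points of NYC1 (2.05 to 2.48) and SGR (1.21 to 1.71) lie past the line, those of NAP (0.43 to 1.01) reach it, and PAO is at 0 with median-of-ratios scaling.

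Reads of overlapping loci or near-identical copies cannot be traced in the table. The 14 loci next to the 7 genes in the order of identifiers were listed as a description. Their values cannot show shared reads, and near-identical copies need not be adjacent. Of these 14 loci, 7 reached a mean of 1 FPKM, and among them 1 passed the 2-fold limit upwards and 0 passed it downwards, or 2 and 0 without a pseudocount. Over all loci the shares were 12.5% upwards and 19.2% downwards, or 15.0% and 26.0% without a pseudocount. The neighbour past the limit with the pseudocount adjoins NOL and had 4.56 FPKM in control against 10.9 FPKM in cold, the opposite direction to NOL. One neighbour of NYC1 was listed at 0 in both columns, and the other had 15.0 FPKM in control against 30.8 FPKM in cold, a ratio of 2.05 but a log2(FPKM + 1) difference of 0.99. Both neighbours of NYC3 were listed at 0 in both columns. Beside SGR, one neighbour had 19.3 FPKM in control against 28.0 FPKM in cold, and the other was under 1 FPKM in each column. Both neighbours of PAO were lower in cold as deposited, like PAO and 61.2% of the 20876 loci. They had 18.8 FPKM in control against 17.1 FPKM in cold and 54.3 FPKM against 30.9 FPKM. Those of RCCR1 lay on both sides, with 1.55 FPKM in control against 2.67 FPKM in cold and 9.08 FPKM against 7.72 FPKM. Those of NAP, and the other neighbour of NOL, were under 1 FPKM in each column. The part of shared reads in any of these values was not tested.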

How the data were processed

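The members and lists were chosen with earlier results of these data known. The authors deposited FPKM for control and cold, 1 column each; the unit comes from the deposited file's label. The build, the annotation, the strand setting and whether a column merges, averages or selects libraries were not given in the sources used here. HISAT2 2.1.0 and featureCounts 1.6.4 appear, with trimming and other alignment tools, in 1 list that covers every assay, per the submitters' processing notes.

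The labels call the replicates biological, but with 1 column per treatment the planned limma test could not be run. Differences are of log2(FPKM + 1). Loci needed a mean of at least 1 FPKM (20876 kept, 34925 left out). The rule for named genes took all 7 members. Of 3541 loci under 0.3 FPKM in both columns, 56 shared a cold to control ratio of 1.24 (tolerance 0.02%), which gives at most a relative depth and no counts. A list of 8 other pathway loci and one of 4 leaf markers were not used, since 0 of their identifiers are in the reference.

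Alternatives were other pseudocounts (0.1, 5, none), filters (none, at least 5 FPKM) and scalings; subtracting the median of all loci, bringing both columns to their mean sum, the level classes, the ratios between members and the neighbouring loci were chosen after seeing the data. Computation used Python 3.11.15 with pandas 2.3.3 and numpy 2.4.6. The other 27 libraries were not used here.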

Additional observations from a re-analysis of the deposited data

How the results depend on the processing

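Of 209 values recomputed, 190 stayed within the limits set (0.5 for log2 differences of genes, 0.1 for medians, 10 percentage points for percentages, 1.5-fold for counts) and 19 moved. Of the 190, at least 21 could not move, since a filter leaves the difference of a gene as it is and subtracting the median keeps its place among the loci. With no filter, the counts of genes past the limit and the median of the 7 genes were also fixed. Subtraction shifts each gene by 0.27, which cannot pass the limit of 0.5. Taken on the log2 scale, the factors of 1.05 and 1.27 on the cold column are also smaller than that limit. The count of 190 is therefore no measure of robustness. The count of genes at least 2-fold higher, 2, was 3 under median-of-ratios scaling, and the count lower was 0 throughout. The background moved with that scaling: 18.1% of all loci then passed the limit upwards, against 12.5% as deposited. Downwards, 10.97% passed it, against 19.2% as deposited. Over all settings the upward share ran from 4.87% to 18.1% and the downward share from 7.34% to 26.0%. The median of the 7 genes (0.49) was 0.82 with median-of-ratios scaling, 0.76 after subtracting the median of all loci, and 0.080 with a mean of at least 5 FPKM, which leaves out NAP (mean 4.998 FPKM). The median of all loci (−0.27) was −0.17 with a pseudocount of 5, 0.029 with median-of-ratios scaling, −0.10 with quantile normalization, and 0 with no filter or after subtraction. The share higher among loci past 2-fold (39.5%) was 50.7%, 62.2%, 51.1% and 60.8% with a pseudocount of 5, median-of-ratios scaling, quantile normalization and subtraction. The share of loci at least 2-fold lower (19.2%) was 7.75% with a pseudocount of 5 and 7.34% with no filter. With no filter, loci near 0 enter with differences near 0, and the share of loci with a smaller difference moved to 15.2% for NOL, 90.4% for NYC3, 21.1% for PAO, 14.6% for RCCR1 and 92.97% for NAP. No paired analysis was possible because the table holds a single value per treatment, and for the same reason no replicate was left out. Without a known depth, no counting error can be given.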
